A study of Mus musculus with 6 samples.

Results

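Cytosolic ribosomal protein genes encode the proteins of the large (Rpl) and small (Rps) subunits of the ribosome, the particle that reads mRNA and joins amino acids into protein. The members were the probe sets whose platform gene symbol is Rpl or Rps followed by a number with at most a short suffix, together with Rplp0 to Rplp2 and Rpsa, leaving out symbols that carry the pseudogene mark -ps. The rule found 67 genes, each with 1 probe set, among 24704 named genes. RefSeq lists 62 of them as protein coding and 5 as pseudogenes (Rps12l1, Rps4l, Rps3a2, Rps3a3 and Rpl6l), which the rule keeps. The rule uses names only.

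Whole lung was profiled on 6 single-colour Affymetrix arrays, 3 from control mice (Nfat5fl/fl) and 3 from mice lacking Nfat5 in endothelial cells (Nfat5(EC)-/-, called knockout here), all held in hypoxia for 7 days. Knockout mice had received tamoxifen, 1 mg a day into the peritoneum over 5 days, and controls the solvent miglyol, so genotype and tamoxifen cannot be told apart. The mice were males and females of 10 to 12 weeks at induction, given 2 to 3 weeks to recover, and lungs were flushed with Ringer solution. No source used here gives the promoter that drives the recombinase, or the sex of each animal. The series design names 4 mice per group and says that preparations holding other tissue, or responding poorly to hypoxia by expression, were left out, so arrays were partly selected on expression.

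Each cell makes the roughly equimolar set of ribosomal proteins from single-copy genes scattered over the genome. Their mRNAs begin with a run of pyrimidines, the terminal oligopyrimidine tract, through which mTOR and LARP1 control their translation together. Many of these genes also carry small nucleolar RNAs (snoRNAs), guides for the modification of ribosomal RNA, inside their introns. Mouse ribosomal protein genes have many processed pseudogenes of near-identical sequence, and the sources used here do not say how the probe sets separate them, so each value below is that of a probe set that may share signal with copies.

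The start regions of members that moved in opposite directions are shown so that their promoters can be compared. RefSeq promoter windows (GRCm38.p6, 250 bases before to 50 after an annotated start) matched 50 of the 67 genes, with 62 windows. Below are 4 rises and all 5 falls among called genes with 1 annotated start. Each stretch runs from 90 bases before to 20 after that start, 5′ to 3′ on the gene's strand. Genes on 1 chromosome were left out of this choice, so the 4 need not be the largest rises. Rps14, which rose by 1.66, is not shown, while Rpl23, which rose by 1.35, is. Capitals mark CGGAAG on either strand (the core bound by ETS factors such as GABP) and runs of at least 8 C or T bases; Rps2, Rpl23 and Rps13 have neither in this stretch. The first 4 genes were higher in the knockout and the other 5 lower.
Rpl41 (chr10:128549149-128549258, minus strand): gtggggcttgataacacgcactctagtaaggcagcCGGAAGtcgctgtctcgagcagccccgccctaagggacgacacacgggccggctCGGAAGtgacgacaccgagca
Rps3a1 (chr3:86142649-86142758, minus strand): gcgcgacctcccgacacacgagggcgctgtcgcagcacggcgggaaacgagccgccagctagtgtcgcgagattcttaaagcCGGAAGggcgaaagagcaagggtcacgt
Rps2 (chr17:24719973-24720082, plus strand): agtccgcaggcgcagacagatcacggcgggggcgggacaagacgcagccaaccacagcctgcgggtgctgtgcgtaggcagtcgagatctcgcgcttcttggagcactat
Rpl23 (chr11:97782420-97782529, minus strand): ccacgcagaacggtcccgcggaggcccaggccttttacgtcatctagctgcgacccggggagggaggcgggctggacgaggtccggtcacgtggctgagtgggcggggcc
Rpl5 (chr5:107900438-107900547, plus strand): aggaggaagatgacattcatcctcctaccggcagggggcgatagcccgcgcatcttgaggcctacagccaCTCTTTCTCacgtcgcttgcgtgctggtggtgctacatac
Rpl22l1 (chr3:28805418-28805527, plus strand): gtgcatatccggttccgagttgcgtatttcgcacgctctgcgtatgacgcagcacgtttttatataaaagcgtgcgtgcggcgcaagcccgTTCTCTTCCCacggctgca
Rpl15 (chr14:18270967-18271076, minus strand): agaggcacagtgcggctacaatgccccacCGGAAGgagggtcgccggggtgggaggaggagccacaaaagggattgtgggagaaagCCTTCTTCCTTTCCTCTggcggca
Rps13 (chr7:116334171-116334280, minus strand): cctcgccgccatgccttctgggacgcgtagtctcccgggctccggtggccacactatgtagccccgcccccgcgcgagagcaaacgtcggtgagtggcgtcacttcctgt
Rpl4 (chr9:64173297-64173406, plus strand): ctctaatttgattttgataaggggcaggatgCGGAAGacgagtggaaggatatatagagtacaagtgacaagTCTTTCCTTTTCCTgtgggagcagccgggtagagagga

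A run of at least 8 C or T bases lay within 50 bases of the annotated start, on the gene's strand, in 45 of the 62 member windows (72.6%), against 35.7% of all 32851 windows of that length in the table. CGGAAG lay on either strand of 33 member windows (53.2%), against 16.9% of all windows. Among genes with a window, the pyrimidine run was present at 8 of 11 that were higher, 4 of 5 that were lower and 27 of 34 that passed in neither direction. CGGAAG was present at 7 of 11, 3 of 5 and 20 of 34 in the same order. Pyrimidine runs are marked in most of the falls shown above and in no rise there, a contrast that these counts do not show. The TATA sequence TATAAA, searched in the 50 bases before the start, was found in 1 member window, that of Rpl22l1 (1.61%), and in 2.63% of all windows. These matches describe letters only, and annotated starts can lie away from the true ones.

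The targeted gene Nfat5 (Entrez 54446) was lower in the knockout, with control replicates 1, 3 and 4 at 6.65, 6.58 and 6.30 and knockout replicates 1, 3 and 4 at 4.46, 4.48 and 3.89 (log2 expression; fold change −2.23 ± 0.23, SE; limma, adjusted p = 0.0015). No source used here says whether its probes lie in the deleted part. Lung markers were well above the median of all genes on every array: 9 lung genes averaged between 9.74 and 10.0 on control arrays and between 9.29 and 9.60 on knockout arrays, without overlap. The endothelial genes Cdh5 and Pecam1 and the surfactant gene Sftpa1 were lower (−1.52 ± 0.26, −1.59 ± 0.34 and −1.04 ± 0.20) and the endothelial gene Cldn5 higher (0.91 ± 0.21; limma adjusted p of the 4 between 0.0045 and 0.014). On the same arrays 5 thymus genes averaged between 2.57 and 3.01 and between 2.76 and 2.97. Heart muscle genes, of which 2 of 4 were called higher, averaged between 5.19 and 5.56 on control arrays and between 5.64 and 6.54 on knockout arrays, so the groups did not overlap there; Tnnt2 of the same list stood at −0.49 ± 0.22, with every knockout below every control, and did not pass. The 3 skeletal muscle genes averaged between 3.11 and 6.27 on control arrays and between 4.16 and 6.38 on knockout arrays, and none passed. Of these, Acta1 ranged from 3.70 on control replicate 3 to 8.04 on knockout replicate 3. The 2 red cell genes measured averaged between 3.10 and 4.34 on control arrays and between 3.55 and 4.85 on knockout arrays. Neither passed, with Alas2 at 0.92 ± 0.44 and Hbb-bs at −0.11 ± 0.36. The part of these lung, heart, skeletal muscle and red cell genes in the results was not tested. The median over 106 snoRNA genes lay between 4.01 and 4.20 on control arrays and between 6.43 and 7.43 on knockout arrays; its part in the results for other genes was not tested either. In whole lung, fewer cells of a type and less RNA per cell cannot be told apart.

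Ribosomal protein genes moved in both directions, with more rises than falls. In knockout against control, 16 of the 67 were higher and 6 lower (limma, Benjamini-Hochberg adjusted p under 0.05 over all named genes); the shares over all genes were 12.5% higher and 13.0% lower. The groups did not overlap at 22 members on the higher side and 10 on the lower, against 21.9% and 20.0% of all genes. The median log2 fold change was 0.40 over the members and 0.04 over all genes. Without control replicate 1, 3 or 4 the counts were 8, 9 and 10 higher and 2, 3 and 3 lower. Calls over all genes also became fewer in those fits, to 6.18%, 5.63% and 8.65% higher and 6.54%, 6.04% and 9.39% lower. They were 9 and 9 after the trend of each array with gene length was removed, where 12.9% of protein-coding genes were higher and 13.2% lower.

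Bright and dim members behaved differently in how many could be called. A member was called bright where its mean over all 6 arrays reached the median of all genes (3.00 on the log2 scale) and dim below it; Rps15 at 3.00 and Rps23 at 3.19 lay just inside, and Rpl39l at 2.96 and Rpl22 at 2.96 just outside. By this split 33 members were bright and 34 dim. The mean includes the knockout arrays, so the class depends in part on the change itself. The bright rises Rps2, Rps7, Rpl23 and Rpl21 had control means of 2.42, 2.76, 2.70 and 2.93, below 3.00. The dim falls Rpl5, Rpl23a and Rps13 had control means of 3.62, 3.11 and 3.03, above it. The split thus favours rises among bright members and falls among dim ones. All genes were split in the same way. The arrays carried no detection calls, and a probe set's brightness is not a measure of how abundant its mRNA is. Of the 33 bright members 14 were higher and 3 lower, against 21.6% of bright genes in each direction, and their median was 0.83 against 0.03. Groups were separate at 18 of them on the higher side and 3 on the lower, against 30.2% and 29.0% of bright genes. Of the 34 dim members 2 were higher and 3 lower, against 3.35% and 4.42% of dim genes, and their median was 0.13 against 0.05. Groups were separate at 4 and 7 of these, against 13.7% and 11.0% of dim genes.

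**Figure D1:**
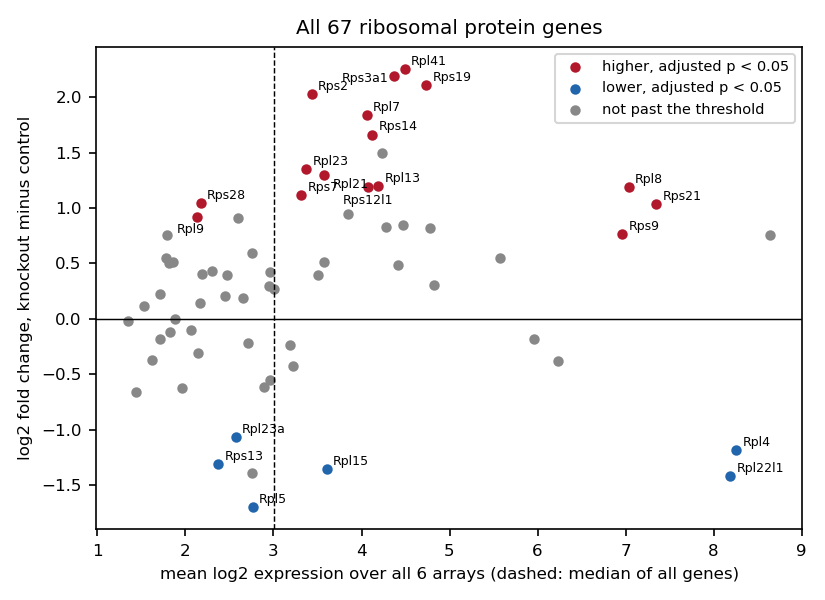
Mean log2 expression over all 6 arrays (x axis) against the log2 fold change of knockout minus control (y axis) for all 67 members, coloured by call, with the median level of all genes as a dashed line. The 14 bright rises lie right of the line, and of the 6 falls Rpl15, Rpl4 and Rpl22l1 are bright.

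Among all 67 members the log2 fold change and the mean level correlated at Pearson r = 0.15 and Spearman rho = 0.35. Among the 33 bright ones the values were −0.30 and −0.13. All points share the same 6 arrays. The mean level also includes the knockout arrays, so a rise lifts it and a fall lowers it. In all, 13 members lay below the lower quartile of all genes (2.05), among them Rplp0, the anchor of the stalk that recruits translation factors, and Rpl10, which completes the peptidyl transferase centre. Of these 13 members none was called, with 4 at an unadjusted p under 0.05 (limma), and changes in them may have been missed.

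**Figure D2:**
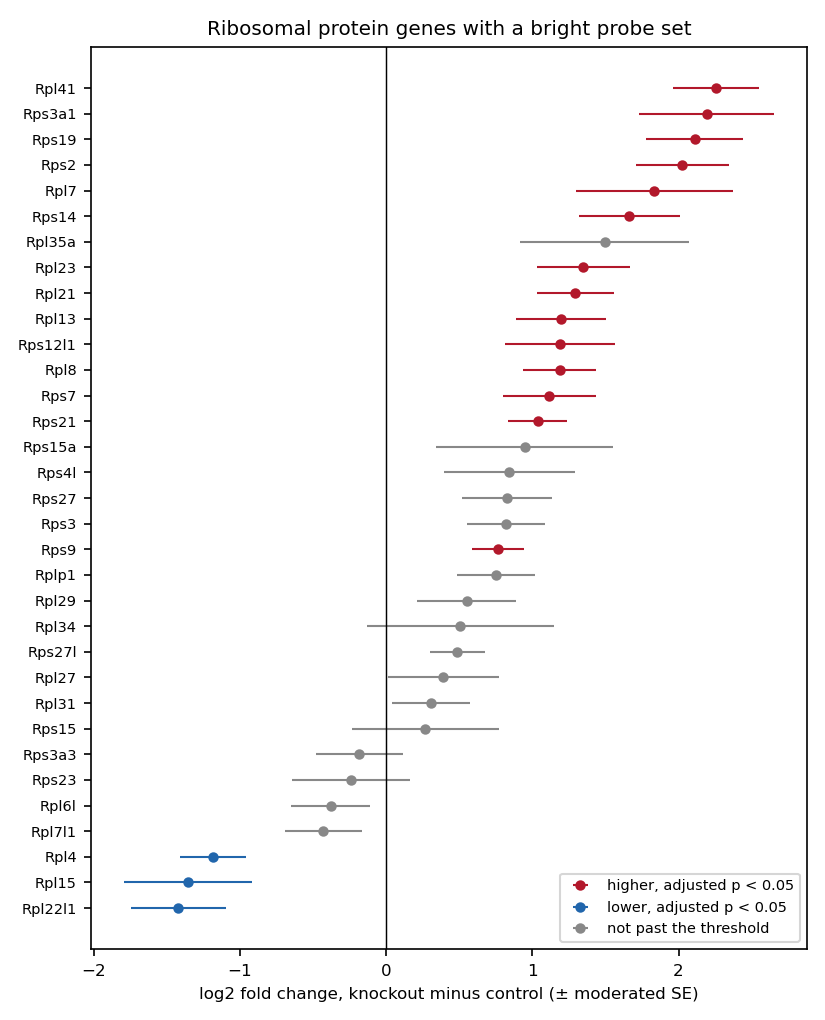
Log2 fold change of knockout minus control for the 33 bright members, with limma's moderated standard error as bars and the call as colour. Rpl41 is highest at 2.25 and Rpl22l1 lowest at −1.42, with 26 of 33 values above 0.

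Members are short genes, and short genes were more often higher on these arrays. The 62 protein-coding members span 0.592 to 11.8 kb (median 3.17 kb), where the median of all protein-coding genes was 18.5 kb. Of the 29 bright protein-coding members 13 were higher (44.8%) and 3 lower (10.3%); their median was 0.83. Over all 3244 bright protein-coding genes with a span up to that of the longest member, 34.6% were higher and 6.13% lower, and the median was 0.52; this comparison was chosen after the data had been seen. Within the protein-coding members, the fold change did not track span (Pearson r = −0.03 and Spearman rho = 0.02 over 62 genes on shared arrays). With the length trend removed, 9 of the 16 rises and all 6 falls kept their calls, and Rpl27a, Rpl37 and Rpl6 joined the falls. Rpl7, Rpl9, Rpl13, Rps7, Rps9 and Rps28 lost theirs, and Rps12l1, a pseudogene in RefSeq, was not among the genes tested there.

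By subunit, 9 of 27 small subunit members were higher and 1 lower (33.3% and 3.70%), and 7 of 40 large subunit members were higher and 5 lower (17.5% and 12.5%). Over all genes the shares were 12.5% and 13.0%, near those of the large subunit. Among bright members the counts were 8 higher and 0 lower of 16 in the small subunit and 6 higher and 3 lower of 17 in the large subunit, against 21.6% of bright genes in each direction. An unadjusted p under 0.05 (limma) was reached by 11 members in each of these groups. The median log2 fold change of the bright members was 0.90 in the small and 0.55 in the large subunit. These bright counts lean on the knockout arrays used in the split. In the small subunit the control means of Rps2 and Rps7 (2.42 and 2.76) lay under 3.00. That of the fall Rps13 (3.03) lay above it. In the large subunit those of Rpl23 and Rpl21 (2.70 and 2.93) lay under it, and those of the falls Rpl5 and Rpl23a (3.62 and 3.11) above. The difference between the subunits was not tested.

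Rps19, a protein of the small subunit head needed for maturation of its ribosomal RNA and mutated in Diamond-Blackfan anaemia, rose by 2.11 ± 0.33 log2 units, a 4.32-fold change (SE; limma, adjusted p = 0.0034). Control replicates 1, 3 and 4 read 3.05, 3.71 and 4.28, and knockout replicates 1, 3 and 4 read 6.24, 5.61 and 5.53. The groups did not overlap, and control replicate 1 and knockout replicate 1 were farthest apart.

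Rps2, which lines the channel where mRNA enters the ribosome, stood at 2.09, 2.31 and 2.87 in controls and 4.94, 3.82 and 4.58 in knockouts, in the same order of replicates, which holds for all values below. Every knockout array lay above every control array, and the rise was 2.03 ± 0.32 (adjusted p = 0.0036). The lncRNA gene Snhg9 and a pair of snoRNA genes lie within its span. Rps3a1 stood at 2.53, 3.14 and 4.16 in controls and 6.26, 4.74 and 5.40 in knockouts, a rise of 2.19 ± 0.46 (adjusted p = 0.010). Its controls spread widely (SD 0.83) but stayed below all knockouts. The RefSeq pseudogenes Rps3a2 and Rps3a3 stood at −0.62 ± 0.48 and −0.18 ± 0.30 and did not pass.

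Rps14, a protein of the small subunit platform, stood at 2.86, 2.91 and 4.11 in controls and 4.89, 5.31 and 4.67 in knockouts. It rose by 1.66 ± 0.34 (adjusted p = 0.0094), and control replicate 4 was the nearest to the knockouts. Rps21 and Rps9, a protein of early small subunit assembly, had the tightest controls of the rises (SD 0.09 and 0.04). The control mean of Rps21 was 6.83 ± 0.09 and its knockout mean 7.86 ± 0.26 (SD, n = 3; log2 fold change 1.04 ± 0.20, limma adjusted p = 0.0076). Rps9 stood at 6.58 ± 0.04 and 7.35 ± 0.10 (log2 fold change 0.76 ± 0.18, limma adjusted p = 0.015). Rps7, also mutated in Diamond-Blackfan anaemia, was higher at 1.12 ± 0.32 (limma adjusted p = 0.032), or 0.73 without knockout replicate 1. Rps28, a small protein of the mRNA exit, passed at 1.04 ± 0.33 (limma adjusted p = 0.048) although its groups overlapped, with control replicate 3 at 2.19 and knockout replicate 4 at 2.14. Rps12l1 was the 1 RefSeq pseudogene that passed, at 1.19 ± 0.38 (limma adjusted p = 0.048), and without knockout replicate 1 it stood at 0.74 and lost the call.

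Rps13 was the 1 small subunit member that fell. It stood at 3.54, 2.35 and 3.20 in controls and 1.68, 2.06 and 1.41 in knockouts, and its fold change was −1.31 ± 0.32 (limma adjusted p = 0.017). The groups were separate, but the knockout mean was 1.72, under the lower quartile of an array (2.02), where a change cannot be sized well. Rps3, which forms part of the mRNA entry with Rps2, missed the threshold at 0.82 ± 0.27 (limma adjusted p = 0.052) with separate groups.

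Rpl41, the smallest protein of the ribosome and a bridge between the subunits, had the largest rise of all members. It stood at 3.22, 3.17 and 3.70 in controls and 6.23, 5.44 and 5.19 in knockouts. The rise was 2.25 ± 0.29, or 4.77-fold (limma adjusted p = 0.0023), and the highest control lay below the lowest knockout. Rpl8, which lies close to the peptidyl transferase centre, rose by 1.19 ± 0.25 (limma adjusted p = 0.0097), from 5.99, 6.46 and 6.88 to 7.57, 7.55 and 7.77. Its knockout arrays lay closer together (SD 0.12) than its controls (SD 0.45).

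Rpl7 stood at 2.21, 3.68 and 3.55 in controls and 6.14, 4.65 and 4.15 in knockouts. Its rise of 1.83 ± 0.54 (limma adjusted p = 0.035) leaned on the extremes of both groups, control replicate 1 and knockout replicate 1, and the call held in only 1 of the 6 fits that left out an array. Rpl23, a protein close to the factor-binding side of the large subunit, stood at 2.52, 2.24 and 3.34 in controls and 4.44, 4.05 and 3.66 in knockouts (1.35 ± 0.32, limma adjusted p = 0.015). Control replicate 4 was the nearest to the knockouts. Rpl21 stood at 2.49, 3.33 and 2.96 in controls and 4.34, 3.87 and 4.45 in knockouts, a rise of 1.29 ± 0.26 (limma adjusted p = 0.0089) with separate groups. Rpl13 rose by 1.20 ± 0.31 (limma adjusted p = 0.022). Rpl9, whose means of 1.67 and 2.60 lay near the bottom of the scale, passed at 0.92 ± 0.29 (limma adjusted p = 0.043).

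Rpl5, which with Rpl11 and the 5S RNA forms the particle that binds Mdm2 and steadies p53 when ribosome assembly stalls, had the largest fall. It stood at 4.19, 3.21 and 3.45 in controls and 1.18, 1.97 and 2.60 in knockouts. The groups were separate, and the fold change was −1.70 ± 0.38 (limma adjusted p = 0.012). Its knockout mean, 1.91, was again under that quartile. Mdm2 itself was also lower, at −1.19 ± 0.28 (limma adjusted p = 0.015).

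Rpl4, whose long loop lines the exit tunnel of the nascent chain, gave the most precise fall. Controls stood at 8.87, 8.85 and 8.82 (SD 0.02) and knockouts at 7.48, 7.42 and 8.09. The fold change was −1.18 ± 0.22 (limma adjusted p = 0.0067), a 2.27-fold fall between the group means. Every knockout array lay below every control array, with knockout replicate 4 the nearest to the controls. Rpl15, a Diamond-Blackfan gene of the large subunit core, stood at 4.34, 4.19 and 4.32 in controls and 1.73, 3.50 and 3.56 in knockouts. Knockout replicate 1 lay far below the others there, and the fall of −1.36 ± 0.44 only just passed (limma adjusted p = 0.0497). It was −0.76 without that array, and the call was lost without any 1 of the controls. Rpl23a, at the tunnel exit where the signal recognition particle docks, stood at 3.43, 3.05 and 2.84 in controls and 1.62, 2.72 and 1.77 in knockouts. Its fold change was −1.07 ± 0.31 (limma adjusted p = 0.034), and the call held in 1 of the 6 fits that left out an array. Rpl27a had a fold change of −1.39 ± 0.55 and did not pass (limma adjusted p = 0.10), with controls spread from 2.16 to 4.38.

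**Figure D3:**
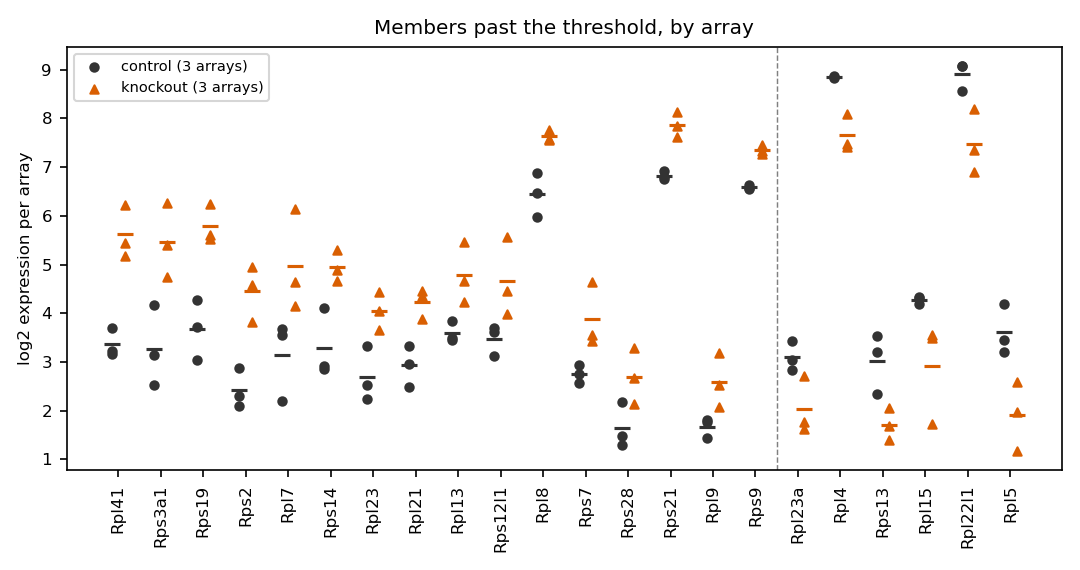
Log2 expression on each array for the 22 members past the threshold, controls as circles and knockouts as triangles, with a bar at each group mean; the dashed line parts the 16 rises from the 6 falls. Rps28 is the 1 member of these whose groups overlap.

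Of the calls, 8 rises and 1 fall held in every 1 of the 6 fits that left out an array: Rpl41, Rps3a1, Rps19, Rps2, Rps14, Rpl21, Rpl8 and Rps21 on the higher side and Rpl4 on the lower. Per array, the median over the 33 bright members was 3.51, 3.70 and 4.11 on control replicates 1, 3 and 4 and 5.39, 4.74 and 4.93 on knockout replicates 1, 3 and 4. Knockout replicate 1 was thus highest and control replicate 1 lowest. Knockout replicate 1 also had the highest median snoRNA level, at 7.43. Over the 34 dim members the same medians were 1.95, 2.14 and 2.16 in controls and 2.18, 2.01 and 2.17 in knockouts, so the groups overlapped.

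In no pair of ribosomal protein paralogues did both members pass the threshold, and no difference between partners was tested. Rpl22l1, which can replace Rpl22 in the ribosome and binds RNA outside it, stood at 9.07, 9.07 and 8.56 in controls and 8.18, 7.36 and 6.89 in knockouts. Its fold change was −1.42 ± 0.32 (limma adjusted p = 0.014) and every knockout lay below every control. Rpl22 stood at 3.12, 3.41 and 3.18 in controls and 2.04, 2.93 and 3.08 in knockouts, with a fold change of −0.55 ± 0.28 that did not pass (limma adjusted p = 0.19). Both probe sets of this pair thus had lower knockout means.

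Rpl7 rose, as given above, while its paralogue Rpl7l1 stood at 3.21, 3.54 and 3.54 in controls and 2.68, 3.56 and 2.77 in knockouts (−0.43 ± 0.26). Rps27 stood at 3.61, 3.77 and 4.22 in controls and 4.41, 4.31 and 5.37 in knockouts (0.83 ± 0.31). Its p53-responsive paralogue Rps27l stood at 4.11, 4.28 and 4.11 and at 4.71, 4.77 and 4.48 (0.49 ± 0.19). Rpl7l1, Rps27 and Rps27l did not pass, though the groups of Rps27 and Rps27l were separate. Rpl3 and its muscle paralogue Rpl3l stood at 0.14 ± 0.21 and 0.43 ± 0.22, and Rpl10 and its testis paralogue Rpl10l at −0.02 ± 0.18 and 0.22 ± 0.25. These 4 were dim, with array values between 1.23 and 2.70, and none passed. Rpl39l, a paralogue of the male germ line, stood at 0.43 ± 0.22 and also did not pass. Rps4x, on the X chromosome, stood at 0.55 ± 0.20 and the RefSeq pseudogene Rps4l at 0.84 ± 0.45, and neither passed.

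Most snoRNAs measured inside ribosomal protein genes rose. By RefSeq, 39 snoRNA genes lie within the spans of 20 members, and 20 of these snoRNA genes, in 14 hosts, had a probe set. A host here is only the member whose span holds the snoRNA gene. Whether both lie on the same strand or in the same transcript was not checked. Of these 15 were higher and 0 lower, their median log2 fold change was 2.21, and 17 had an unadjusted p under 0.05 (limma). Over all 106 snoRNA genes 80 were higher and 0 lower (median 2.10; 85 at an unadjusted p under 0.05, limma). Of the 15 that rose, 6 had a host that rose, 3 a host that fell and 6 a host that did not pass. The 5 that did not pass were Snord4a, Snord14a, Snora3, Snora70 and AF357399, whose hosts fell or did not pass. In all 6 fits that left out an array 14 of the 15 calls held; that of Snord72 held in 4.

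Snord16a, in Rpl4, stood at 7.29, 7.77 and 7.58 in controls and 10.85, 10.50 and 10.03 in knockouts. It rose by 2.91 ± 0.25 (limma adjusted p = 0.0011) while Rpl4 fell by 1.18. The groups were separate for both probe sets, in opposite directions. Snord42a and Snord42b, in Rpl23a and chosen after their values were seen, rose by 2.04 ± 0.30 and 2.52 ± 0.23 while Rpl23a fell by 1.07. Snord4a in the same gene stood at −0.67 ± 0.23 and did not pass.

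Snord73b, in Rps3a1, rose by 2.91 ± 0.26 (limma adjusted p = 0.0011) beside the host's own rise of 2.19. Snord15b, in Rps3, stood at 7.40, 7.95 and 8.14 in controls and 11.09, 10.85 and 10.66 in knockouts, a rise of 3.04 ± 0.24, and its neighbour Snord15a rose by 2.90 ± 0.26. Rps3 itself stood at 0.82 ± 0.27 and missed the threshold. Host and snoRNA fold changes correlated at Pearson r = 0.46 and Spearman rho = 0.46 over the 20 pairs, which share arrays and in part hosts. Of the 20 members with a snoRNA in their span 5 were higher and 4 lower, and of the 47 without 11 were higher and 2 lower, against 12.5% and 13.0% of all genes; the difference was not tested.

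**Figure D4:**
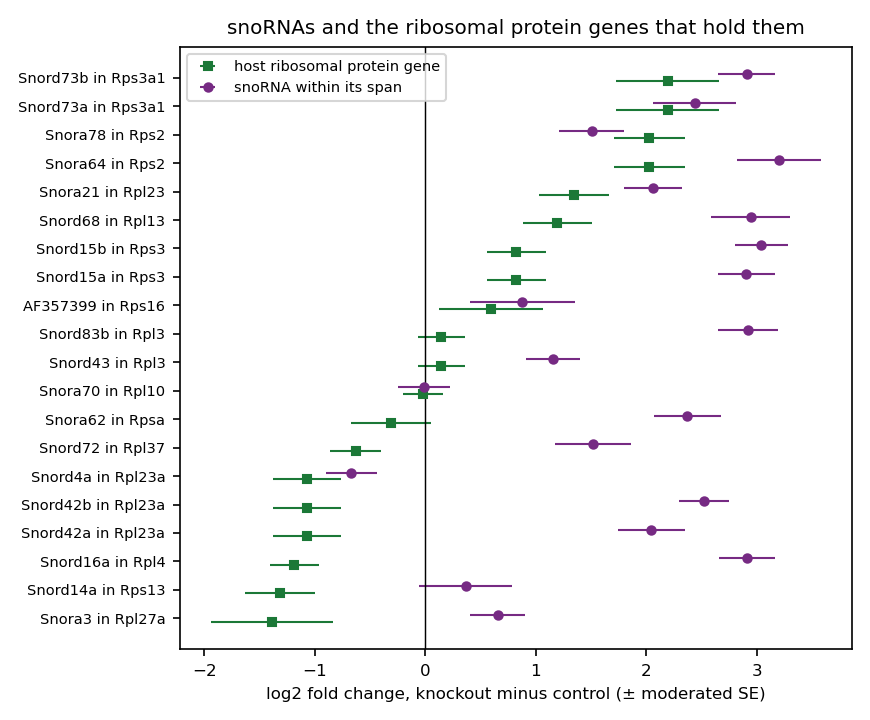
Log2 fold change of knockout minus control, with moderated standard errors, for 20 snoRNA genes (circles) and the ribosomal protein gene whose span holds each (squares), ordered by host. Snord16a and the Snord42 pair lie above 2 while their hosts Rpl4 and Rpl23a lie below −1.

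Other genes of the ribosome's making and use were counted from lists chosen with earlier results of these data known. Of 57 ribosome assembly factors 9 were higher and 23 lower (15.8% and 40.4%), and the median was −0.51. Over all genes the shares were 12.5% and 13.0% and the median 0.04; 49 of the 57 were bright, and of bright genes 21.6% were called each way. Nucleolin (Ncl), the abundant RNA-binding protein of the nucleolus, stood at −1.31 ± 0.22 (limma adjusted p = 0.0043), and Utp14a, a helicase cofactor of the small subunit processome, at −1.45 ± 0.20 (limma adjusted p = 0.0027). Bop1, of the PeBoW complex for the large subunit, rose by 1.41 ± 0.21 and Rrp9, a protein of the U3 snoRNA particle, by 1.42 ± 0.20 (limma adjusted p = 0.0029 and 0.0026). Most of the list thus lay on the lower side, where the bright ribosomal protein genes lay mostly on the higher. That difference was not tested.

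Translation factors and other genes with a terminal oligopyrimidine tract numbered 20, of which 3 passed as higher and 2 as lower (median −0.10), below the 21.6% of bright genes called each way, as 17 of the 20 were bright. The elongation factors Eef1g and Eef2 rose by 1.79 ± 0.38 and 1.31 ± 0.21 and the initiation factor subunit Eif3f by 1.36 ± 0.20, while Pabpc1, the poly(A)-binding protein, stood at −1.69 ± 0.29 (limma adjusted p of the 4 between 0.0029 and 0.010). Of 24 other initiation factors 5 passed as higher and 7 as lower (20.8% and 29.2%; median −0.21; 21 bright), beside the same 21.6%. Eif6, which keeps the large subunit from joining too early, rose by 1.28 ± 0.20 and Eif5a by 0.96 ± 0.19, and Eif5 stood at −1.64 ± 0.32 and Eif4a2 at −0.91 ± 0.18. Of 3 listed ribosomal protein probe sets that the naming rule does not take in, all bright, 1 passed as higher and 0 as lower, beside the same 21.6%. The 1 was Fau, a ribosomal protein fused to a ubiquitin-like domain, which rose by 0.96 ± 0.22 (limma adjusted p = 0.014). Rpl36al stood at 0.32 ± 0.28 and Rpl9-ps6 at −0.15 ± 0.22, and neither passed.

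Among regulators, 5 of 20 genes of mTOR, MYC and LARP1 control passed as higher and 2 as lower (median 0.30); 18 were bright, and the higher share is near the 21.6% of bright genes. Beside Mdm2, given above, the mTOR activator Rheb stood at −0.74 ± 0.19, Mycn rose by 1.18 ± 0.28 and Eif4ebp1, the mTOR target that blocks cap-dependent initiation, by 0.71 ± 0.18 (limma adjusted p between 0.015 and 0.022 for the 4). Against 12.5% and 13.0% of all genes, of 17 genes of RNA polymerase I, which makes ribosomal RNA, 0 were higher and 1 was lower (Taf1d at −1.36 ± 0.20), with 6 at an unadjusted p under 0.05 (limma). Of 5 ribosomal protein chaperones 0 passed in either direction, with 2 at an unadjusted p under 0.05 (limma). All 5 chaperones and 11 of the 17 RNA polymerase I genes were bright, and of bright genes 21.6% were called each way.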

How the data were processed

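Per the submitters' processing notes, the deposited log2 values were made by the authors with RMA. No source used here gives its version or how probe sets were defined. The 6 columns shared their quantiles (lower quartile 2.02, median 2.98, maximum 13.0), so the authors' normalization equalised the arrays. Precision is limited by there being only 6 arrays. GEO's platform annotation gave 1 symbol to 24705 of the 25428 probe sets; for a symbol with several the brightest was kept, which left 24704 genes. Biotype, span and snoRNA positions came from the RefSeq table of GRCm38.p6, which held all 67 members under the same symbols.

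Groups were compared by lmFit and eBayes of limma 3.58.1 (R 4.3.3), with no covariate and Benjamini-Hochberg adjustment over all named genes and a threshold of 0.05. The code was tested on simulated data. Named in full were the 8 largest rises and falls past the threshold, as well as paralogue pairs, up to 4 genes per list and the 4 snoRNAs of smallest p. Members and lists were chosen with earlier results of these data known. Alternatives are given in the closing section.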

Additional observations from a re-analysis of the deposited data

How the results depend on the processing

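The counts of 16 higher and 6 lower members were 9 higher with the length trend removed, 7 and 1 at a threshold of 0.01, 8 to 17 and 2 to 8 when 1 array was left out, and 3 lower among genes above the median level. Of bright members, 14 higher and 3 lower became 9 higher with the length trend removed, 7 and 1 at a threshold of 0.01, and 8 to 15 and 1 to 4 when 1 array was left out. With the split at the 75th percentile 6 bright members were higher, and at the 25th percentile 6 were lower. The median of the bright members was 0.46 with the split at the 25th percentile. That of the dim members was −0.085 with the length trend removed and 0.00096 or 0.30 with the split at the 25th or 75th percentile. With the replicate number as a block (replicate block), 16 members were higher and 6 lower, 13 and 6 of them shared with the fit without it. Same-numbered arrays of the groups correlated at −0.01 to 0.06 in their deviations from the group means, so the numbers were not taken as pairs. Of the single genes, Rpl3 reversed to −0.13 with the length trend removed, and Rpl10 ranged from −0.058 to 0.029 when 1 array was left out, reversing to 0.028 without control replicate 1 and 0.029 without knockout replicate 3; both were dim and passed in no fit named here. The cause of these changes was not tested. No dim member is left among genes above the median level. Without detection calls, a dim member that did not pass cannot be told from one that was not measured.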

Other observations

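The probe sets of ribosomal protein pseudogenes marked -ps were left out by the naming rule. Of 39 such probe sets 6 passed as higher and 2 as lower; 23 were bright, and the median log2 fold change was 0.19. The share higher, 15.4%, is near the 12.5% of all genes, and 21.7% of the bright ones compare with 21.6% of bright genes. Rps26-ps1 read 6.82, 7.12 and 7.13 in control replicates 1, 3 and 4 and 8.07, 7.68 and 8.20 in the knockouts of those numbers, a rise of 0.96 ± 0.21 (limma adjusted p = 0.012), where Rps26 itself was dim at 0.00096 ± 0.23. Rpl9-ps4 rose by 0.97 ± 0.22 beside a rise of 0.92 in Rpl9, and Rpl36-ps12 rose by 1.40 ± 0.28 (limma adjusted p = 0.013 and 0.0084). The brighter Rpl9-ps6, with means of 8.71 in controls and 8.56 in knockouts, stood at −0.15 ± 0.22. It did not pass, and its groups overlapped. Chosen after their values were seen, Rps13-ps2 rose by 0.97 ± 0.28 where Rps13 fell by 1.31, and Rpl17-ps3 stood at −1.15 ± 0.29 where Rpl17 stood at 0.21 ± 0.35. How far such probe sets and those of the parent genes share signal was not tested.

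The 76 mitochondrial ribosomal protein genes, which build the separate ribosome of mitochondria, gave 18 rises and 5 falls past the threshold (median 0.27, 60 bright). The 23.7% higher is near the 21.6% of bright genes, and the 6.58% lower is below the 21.6% of bright genes called lower. The 67 cytosolic members gave 16 and 6 (23.9% and 8.96%, median 0.40, 33 bright). The difference was not tested.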
